A study of Sus scrofa with 6 samples.

Results

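Enzymes that remove superoxide and peroxides, and those that make, use or recycle glutathione and thioredoxin, were followed in longissimus dorsi, a long back muscle. The genes were the rows of the authors' table whose pig Ensembl identifier maps to a symbol that starts with GPX, PRDX, SOD plus a digit, GST, MGST, TXN, GLRX or NQO, or that equals CAT, GCLC, GCLM, GSR, GSS or HMOX1. This rule used names and no measured value, and it found 36 of the 17627 rows. There were 3 libraries from Wannanhua, a local Chinese breed, and 3 from Yorkshire, a lean commercial breed. All 6 libraries are labelled as 5 months old, although the design text speaks of piglets, and no treatment or genetic change is given for either breed. The labels number the replicates without saying that each is a separate animal, so p-values reflect only how much these samples vary, some of which may be technical. Breed is the only label that differs between the groups, so any difference in rearing or sampling that followed breed cannot be told apart from it.

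As background, superoxide formed by respiring mitochondria and by oxidases is turned into hydrogen peroxide by superoxide dismutases. Catalase, the glutathione peroxidases and the peroxiredoxins then remove hydrogen peroxide, the last 2 groups with electrons from glutathione and thioredoxin. Glutathione reductase and the thioredoxin reductases restore these carriers with NADPH, and the transcription factor NFE2L2 (NRF2) drives many genes of the system when its inhibitor KEAP1 lets it go. In skeletal muscle these enzymes meet the peroxide that arises in contraction and respiration.

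The libraries held 16385602 to 21056699 reads, with 10726 to 11979 genes at 1 FPKM or more, FPKM being the authors' fragments per kilobase of transcript scaled by library size. All libraries carried abundant muscle transcripts: 5 muscle markers with usable values summed to 33198 to 39481 FPKM in Wannanhua and 35409 to 46751 in Yorkshire. The slow-fibre markers (5 with a row) summed to 40509, 43293 and 10788 FPKM in Wannanhua 1, 2 and 3 and to 17286, 5638 and 10050 in Yorkshire 1, 2 and 3. The fast-fibre markers (2 with a row) summed to 9973, 6706 and 22673 in Wannanhua and to 30194, 26199 and 27589 in Yorkshire. Wannanhua 3 therefore lay nearer to Yorkshire on both lists. Fibroblast markers (5 with a row) summed to 365, 281 and 288 FPKM in the 3 Wannanhua libraries in order and to 316, 766 and 525 in the Yorkshire ones. Adipocyte markers (3 with a row) summed to 15.5 to 24.2 FPKM in Wannanhua and 4.2 to 17.9 in Yorkshire. Macrophage markers summed to 12.5 to 16.4 FPKM in Wannanhua and 10.8 to 21.7 in Yorkshire (5 with a row), and endothelial markers to 35.1 to 52.1 and 39.1 to 47.4 (3 with a row). In such bulk tissue, fewer cells of a type and less RNA per cell cannot be told apart.

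Wannanhua muscle differed from Yorkshire muscle past the threshold in 1 of these genes. PRDX4, the peroxiredoxin of the endoplasmic reticulum, was lower in Wannanhua, at 29.6 ± 6.37 FPKM, than in Yorkshire, at 74.9 ± 6.45 FPKM (SD, n = 3 each; limma adjusted p = 0.0295). PRDX1, the main cytosolic peroxiredoxin, and SOD1, the copper and zinc superoxide dismutase of the cytosol, had higher levels in all 3 Wannanhua libraries but narrowly missed the threshold (limma adjusted p = 0.0558 and 0.0601). The most abundant members, PRDX2 and PRDX3, overlapped between the breeds. Of 36 members, 34 reached 1 FPKM in 3 or more libraries and were tested. Of these, 33 reached it in all 6 libraries. GSTCD reached it in the 3 Wannanhua libraries and narrowly in Yorkshire 2 (1.01 FPKM), but not in Yorkshire 1 and 3 (0.565 and 0.927).

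Among the 34, 20 had a positive and 14 a negative difference in log2(FPKM + 1), Wannanhua minus Yorkshire, while 62.6% of all genes tested had a positive one. Their median was 0.07, and that of all 11791 genes tested was 0.12. The threshold was passed by 1 of 34 members, which was lower, and by 3.05% of all tested genes (1.76% higher and 1.29% lower). In edgeR, a count test on reads, 1 member and 2.92% of all genes passed. At an unadjusted p under 0.05 stood 8 members, 4 higher and 4 lower, or 23.5%, beside 22.1% of all genes (14.6% higher and 7.53% lower). The libraries of the breeds did not overlap in 11 members, 6 higher and 5 lower in Wannanhua, or 32.4%, beside 29.9% of all genes (20.3% higher and 9.63% lower). Without regard to direction, these shares are near the background, and what follows describes single genes.

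**Figure D1:**
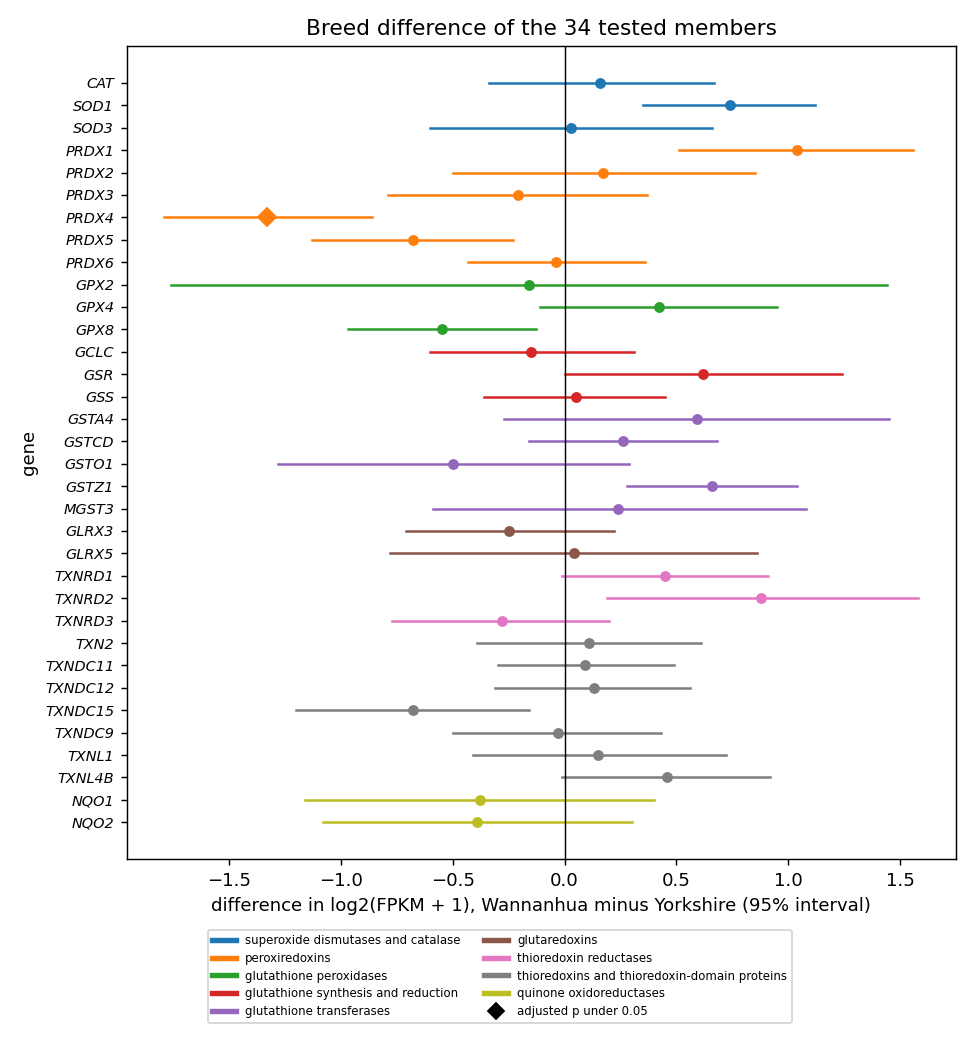
Difference in log2(FPKM + 1) between Wannanhua and Yorkshire for the 34 tested members, with the 95% interval of the limma fit as a bar, coloured by enzyme family. Points right of 0 are higher in Wannanhua; PRDX4 at -1.33, drawn as a diamond, is the only one past the adjusted threshold.

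Levels spanned a wide range on the FPKM scale, which is per length. Averaged over the 6 libraries, PRDX2 stood highest at 340.0 FPKM, followed by PRDX3 at 215.0, SOD1 at 181.0, CAT at 157.0 and TXNL1 at 119.0. These 5 were the members with a mean of 100 FPKM or more, while 17 lay between 10 and 100 and 14 under 10. The ranks of neighbours are not separated: in Wannanhua 3 PRDX2 and SOD1 stood at 235 and 234 FPKM. PRDX2 exceeded 98.4% of all rows of the table. At the low end, GSTM3 was listed at 0 in Wannanhua 1 and 2 and had 8 reads in Wannanhua 3, against 16, 7 and 17 in Yorkshire. GSTO2 had 3, 4 and 2 reads in Wannanhua and 1, 0 and 0 in Yorkshire. Neither passed the filter, and no fold is given for them.

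Peroxiredoxins reduce peroxides through a reactive cysteine, and the 6 members split by gene rather than moving as a family. PRDX4 (ENSSSCG00000012171) stood, in order of replicate number, at 24.5, 27.6 and 36.8 FPKM in Wannanhua and at 71.8, 70.5 and 82.3 in Yorkshire, the order kept below. The groups were far apart: the highest Wannanhua library, the third, was well below the lowest Yorkshire library. Yorkshire exceeded Wannanhua 2.53-fold by group means, with a log2 difference of -1.33 ± 0.20 (SE; 95% interval -1.79 to -0.86; limma adjusted p = 0.0295, and 0.0109 to 0.126 over 15 alternatives). The count test in edgeR on reads gave -1.48 (adjusted p = 0.0157). The call was lost without Wannanhua 1, Wannanhua 2, Yorkshire 2 or Yorkshire 3 (limma adjusted p = 0.105, 0.12, 0.0777 and 0.126), with differences of -1.20, -1.29, -1.37 and -1.26. It was also lost without the filter on low values (0.0544). The summed fibroblast markers, given above, were highest in Yorkshire 2 and 3, as were COL1A2, COL3A1 and LUM singly. PDGFRA in Yorkshire 3 (1.45 FPKM) lay below all Wannanhua libraries (1.61 to 2.05), and DCN there (209) lay below Wannanhua 1 (212). The part of fibroblasts in the PRDX4 values was not tested.

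PRDX1 (ENSSSCG00000003914) lay the other way, at 85.2, 69.4 and 88.9 FPKM in Wannanhua and 43.3, 46.2 and 29.1 in Yorkshire. All Wannanhua libraries were above all Yorkshire libraries, and the ratio of means was 2.05. The log2 difference of 1.04 ± 0.22 (SE; 95% interval 0.51 to 1.56) missed the threshold (limma adjusted p = 0.0558, and 0.046 to 0.175 over 15 alternatives). It passed when genes were required to reach 5 FPKM (0.046).

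The order of PRDX1 and PRDX4 within a library thus differed between the breeds. The ratio of their FPKM values, PRDX1 over PRDX4, was 3.48, 2.51 and 2.42 in Wannanhua and 0.604, 0.655 and 0.354 in Yorkshire. PRDX1 was the more abundant of the pair in every Wannanhua library and PRDX4 in every Yorkshire library. This pair was chosen after the values were seen, and the ratio is given without a test. As PRDX1 was higher and PRDX4 lower in every Wannanhua library, the ratio had to separate the breeds.

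PRDX5, a peroxiredoxin of mitochondria, peroxisomes and cytosol, stood at 11.7, 16.9 and 15.0 FPKM in Wannanhua and 26.9, 23.2 and 21.2 in Yorkshire. The groups did not overlap, with Wannanhua lower, and the log2 difference of -0.68 ± 0.19 (SE) did not pass (limma adjusted p = 0.103). PRDX3, the mitochondrial peroxiredoxin, stood at 241, 200 and 157 FPKM in Wannanhua and 286, 180 and 228 in Yorkshire. Its groups overlapped, with a 95% interval of the log2 difference from -0.79 to 0.37. PRDX6, which works with glutathione, showed the smallest difference among the 6, at 38.9, 49.3 and 38.8 FPKM in Wannanhua and 41.7, 44.8 and 43.2 in Yorkshire (95% interval -0.43 to 0.36).

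PRDX2, the cytosolic peroxiredoxin that is also very abundant in red blood cells, stood at 432, 429 and 235 FPKM in Wannanhua and 374, 259 and 313 in Yorkshire. Wannanhua 1 and 2 were high and Wannanhua 3 was the lowest of all, so the groups overlapped (95% interval -0.50 to 0.85). Red blood cell markers with a row numbered 4 of 10, with sums of 144, 119 and 43.7 FPKM in Wannanhua and 93.9, 15.8 and 18.4 in Yorkshire. Nearly all of this was the globin HBB, at 141, 116 and 42.9 FPKM and at 93.1, 15.5 and 18.0. Of the defining markers, SLC4A1 was listed at 0 in 4 libraries, and ALAS2 lay between 0.277 and 1.44 FPKM. The part of blood in the PRDX2 values was not tested.

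**Figure D2:**
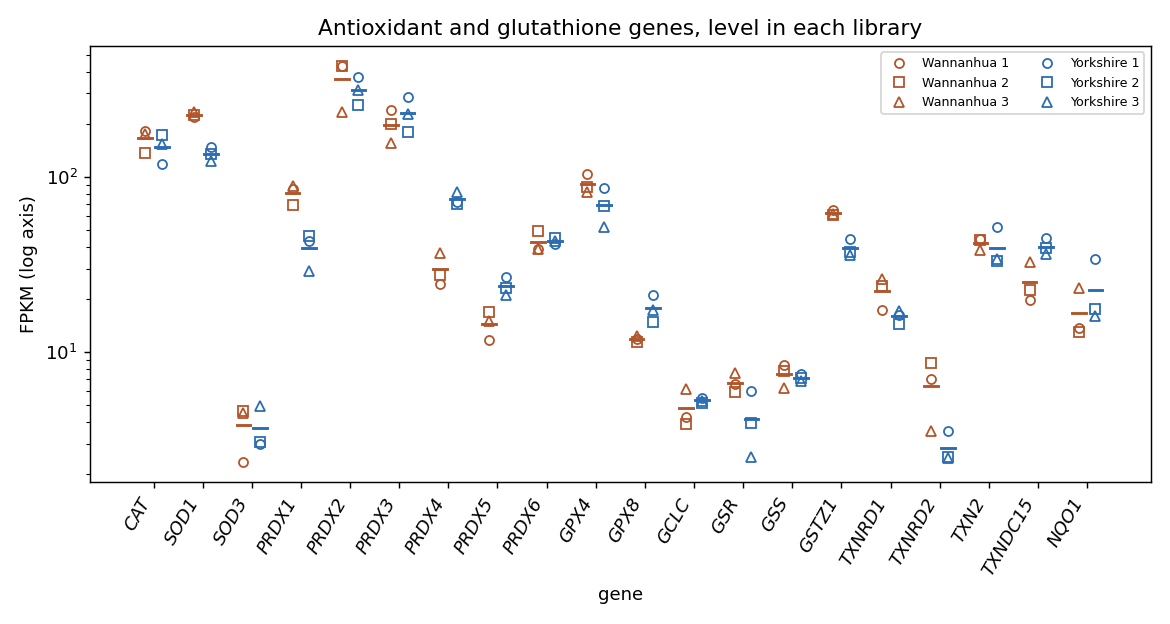
FPKM on a log axis of the 20 members described library by library, with Wannanhua in brown and Yorkshire in blue, a symbol for each replicate number and a short line at the mean of each breed. PRDX4 stands at 24.5 to 36.8 in Wannanhua and 70.5 to 82.3 in Yorkshire, while PRDX1 and SOD1 stand higher in every Wannanhua library.

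Superoxide dismutases and catalase form the first steps of removal. SOD2 matched no row, so the dismutases described here are SOD1 and SOD3. SOD1 (ENSSSCG00000021355) stood at 219, 227 and 234 FPKM in Wannanhua and 148, 136 and 124 in Yorkshire, on 1814 to 3074 reads per library. The values were tight within each breed and did not overlap. The ratio of means was 1.67 and the log2 difference 0.74 ± 0.17 (SE; 95% interval 0.35 to 1.12; limma adjusted p = 0.0601, and 0.0481 to 0.22 over 15 alternatives, the lowest with the filter at 5 FPKM). In edgeR the adjusted p was 0.126.

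CAT, the catalase of peroxisomes, stood at 184, 138 and 176 FPKM in Wannanhua and 119, 174 and 154 in Yorkshire. The groups overlapped, with a 95% interval of the log2 difference from -0.34 to 0.67. SOD3, the secreted dismutase, was low in all libraries, at 2.34, 4.59 and 4.5 FPKM in Wannanhua and 3.0, 3.05 and 4.94 in Yorkshire, and its difference of 0.03 changed sign under 7 of the 14 alternatives that gave it a value. CCS, the chaperone that loads copper into SOD1, stood at 20.3, 13.8 and 25.4 FPKM in Wannanhua and 28.1, 31.1 and 26.6 in Yorkshire. CCS therefore lay opposite to SOD1, without overlap, though its difference did not pass (limma adjusted p = 0.232). CCS is named here after its values were seen. The ratio of SOD1 to CCS was 10.8, 16.4 and 9.22 in Wannanhua and 5.27, 4.38 and 4.65 in Yorkshire. As the 2 genes lay opposite without overlap, this ratio had to separate the breeds.

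Of the 3 glutathione peroxidases with a row, 0 passed in limma, 1 stood at an unadjusted p under 0.05 and edgeR called 0. The shares of all genes were 3.05%, 22.1% and 2.92%, and 3 genes are too few to set against them. GPX8, a peroxidase of the endoplasmic reticulum as PRDX4 is, stood at 11.8, 11.4 and 12.3 FPKM in Wannanhua and 21.3, 14.9 and 17.4 in Yorkshire. All Wannanhua libraries were below all Yorkshire libraries (log2 difference -0.55 ± 0.18 SE, limma adjusted p = 0.138; edgeR 0.0989). The summed fibroblast markers were highest in Yorkshire 2 and 3, where GPX8 was lower than in Yorkshire 1, and their part in GPX8 was not tested. GPX4, the selenoprotein that reduces lipid peroxides in membranes, stood at 104, 87.8 and 81.7 FPKM in Wannanhua and 86.2, 68.6 and 52.1 in Yorkshire, with overlap (limma adjusted p = 0.323). These GPX4 values rest on only 84 to 172 reads per library, fewer than the 455 to 1226 reads of PRDX1, whose mean FPKM over all libraries was lower (60.4 against 80.0). GPX2, known from the gut lining, was erratic within both breeds, from 1.64 to 13.5 FPKM in Wannanhua and from 2.17 to 10.4 in Yorkshire.

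Glutathione is made by glutamate-cysteine ligase and glutathione synthetase and restored by glutathione reductase. GCLC, the catalytic subunit of the ligase, stood at 4.27, 3.90 and 6.12 FPKM in Wannanhua and 5.50, 5.11 and 5.26 in Yorkshire. GSS, the synthetase, stood at 8.39, 7.80 and 6.22 FPKM in Wannanhua and 7.54, 7.12 and 6.81 in Yorkshire. Both overlapped between breeds, and the 95% intervals ran from -0.60 to 0.31 for GCLC and from -0.36 to 0.45 for GSS. GSR, the reductase, stood at 6.54, 5.88 and 7.59 FPKM in Wannanhua and 6.03, 3.94 and 2.53 in Yorkshire. Yorkshire 1 reached the Wannanhua range, and the difference of 0.62 ± 0.27 (SE) did not pass (limma adjusted p = 0.227).

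Glutathione transferases attach glutathione to reactive compounds or use it in related reactions. GSTZ1, which also carries out a late step of tyrosine breakdown, stood at 64.9, 60.4 and 61.7 FPKM in Wannanhua and 44.5, 37.3 and 35.8 in Yorkshire. The groups did not overlap and the ratio of means was 1.59, with a log2 difference of 0.66 ± 0.16 (SE; limma adjusted p = 0.0779, and 0.0618 to 0.239 over 15 alternatives). MGST3, a membrane-bound transferase, stood at 91.7, 103 and 42.1 FPKM in Wannanhua and 81.8, 53.7 and 54.0 in Yorkshire, with Wannanhua 3 the lowest of the 6. GSTO1, an omega-class transferase, stood at 14.1, 13.4 and 27.3 FPKM in Wannanhua and 36.6, 20.6 and 20.2 in Yorkshire. GSTA4, which acts on the lipid aldehyde 4-hydroxynonenal, had 26 to 110 reads per library and averaged 3.38 and 1.69 FPKM (limma adjusted p = 0.387). GSTCD, which carries a transferase-like domain, averaged 1.19 and 0.835 FPKM (0.435).

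The quinone reductases differed more between libraries than between breeds. NQO1, a well-known NFE2L2 target, stood at 13.8, 13.1 and 23.1 FPKM in Wannanhua and 34.0, 17.6 and 16.1 in Yorkshire. Wannanhua 3 and Yorkshire 1 were the high libraries, as they were for GSTO1, and the ratio of NQO1 to GSTO1 stayed between 0.795 and 0.98 over all 6 libraries. That pair was picked after the values were seen. NQO2 averaged 3.25 ± 1.54 and 4.38 ± 1.02 FPKM (SD, n = 3) on 14 to 42 reads per library.

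**Figure D3:**
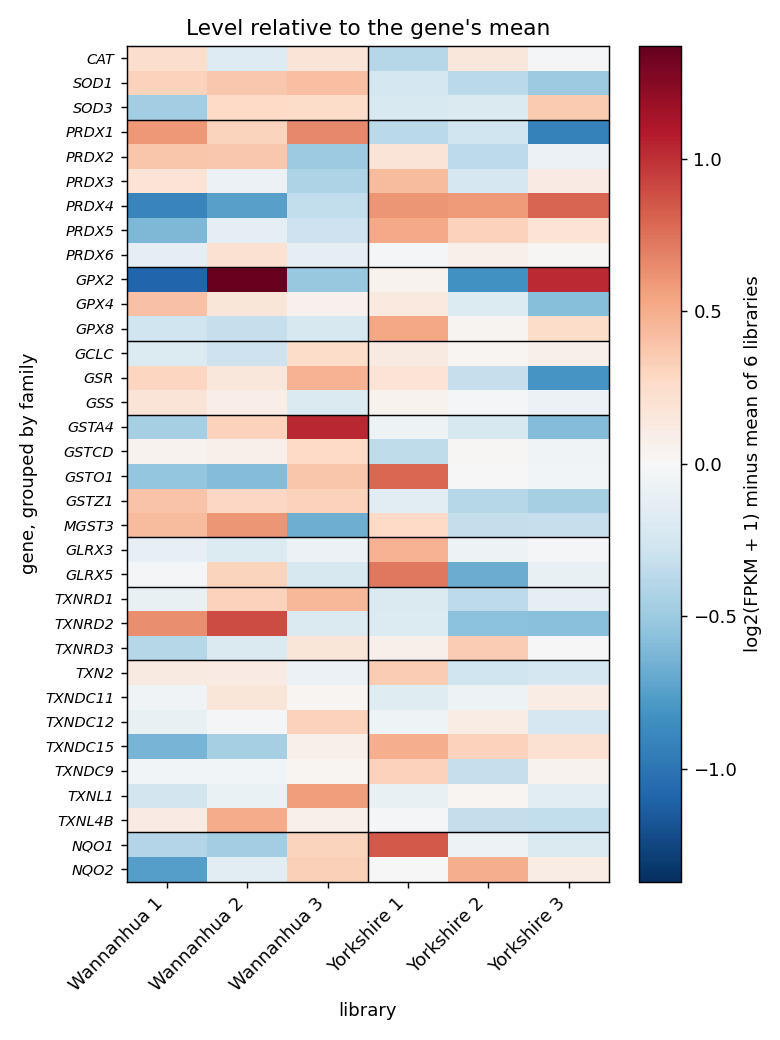
Level of each of the 34 tested members in each library as log2(FPKM + 1) minus the gene's mean over the 6 libraries, red above and blue below, grouped by family. PRDX4 is blue in the 3 Wannanhua and red in the 3 Yorkshire libraries, PRDX1 and SOD1 are reversed, and Wannanhua 3 and Yorkshire 1 are the reddest for NQO1 and GSTO1.

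Thioredoxin reductases are selenoproteins that restore thioredoxins with NADPH. TXNRD2, the mitochondrial reductase, stood at 7.03, 8.63 and 3.52 FPKM in Wannanhua and 3.54, 2.52 and 2.48 in Yorkshire. Wannanhua 1 and 2 were high, while Wannanhua 3 fell just under Yorkshire 1. The log2 difference of 0.88 ± 0.30 (SE) did not pass (limma adjusted p = 0.145), but without Wannanhua 3 it was 1.20 and passed (0.0378). Slow-fibre markers, given above, were likewise high in Wannanhua 1 and 2 and low in Wannanhua 3, and their part in the TXNRD2 values was not tested. TXNRD1, the cytosolic reductase, stood at 17.5, 23.7 and 26.2 FPKM in Wannanhua and 16.3, 14.5 and 17.1 in Yorkshire. These groups did not overlap, by a small margin, and the difference of 0.45 ± 0.20 (SE) did not pass (limma adjusted p = 0.234). TXNRD3 lay at 3.27 ± 0.856 and 4.15 ± 0.68 FPKM (SD, n = 3), with overlap.

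Among thioredoxins and proteins with a thioredoxin domain, 0 of 7 passed in limma, 1 stood at an unadjusted p under 0.05 and edgeR called 0. Beside these, the shares of all genes were 3.05%, 22.1% and 2.92%, and 7 genes are too few to tell from them. TXN2, the mitochondrial thioredoxin, stood at 44.1, 43.8 and 38.1 FPKM in Wannanhua and 51.6, 33.1 and 34.0 in Yorkshire (95% interval -0.39 to 0.61). TXNDC15, a membrane protein with a thioredoxin domain, stood at 19.8, 22.5 and 32.9 FPKM in Wannanhua and 44.6, 39.1 and 36.2 in Yorkshire. Its groups did not overlap, with Wannanhua lower and Wannanhua 3 nearest to Yorkshire (log2 difference -0.68 ± 0.22 SE, limma adjusted p = 0.135; edgeR 0.0934). TXNL1, a thioredoxin-like protein of the proteasome, was highest in Wannanhua 3 at 174 FPKM, while the other 5 libraries lay between 98.1 and 119. TXNL4B, TXNDC9, TXNDC11 and TXNDC12 had differences of 0.46, -0.03, 0.09 and 0.13, of which the last 3 changed sign under some alternatives. Of the glutaredoxins, which reduce disulfides with glutathione or help assemble iron-sulfur clusters, GLRX3 averaged 53.4 ± 2.06 and 64.6 ± 14.7 FPKM in the Wannanhua and Yorkshire libraries (SD, n = 3), and GLRX5 30.0 ± 5.83 and 31.3 ± 15.9. GLRX3 was lower, and TXNL4B and GSTCD were higher, in every Wannanhua library. The nearest libraries of the 2 breeds stood at 55.2 against 55.3 FPKM for GLRX3 and at 1.06 against 1.01 for GSTCD. For GSTCD the 3 Wannanhua libraries alone were enough to pass the filter.

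Summed by family on the FPKM scale, peroxiredoxins came to 733 ± 141 in Wannanhua and 728 ± 111 in Yorkshire (SD, n = 3). The totals differed by less than their spread. Superoxide dismutases and catalase summed to 406, 369 and 415 FPKM in Wannanhua and 269, 313 and 282 in Yorkshire, without overlap. Nearly all of it came from SOD1, itself without overlap, and CAT, which overlapped. Thioredoxin reductases also summed without overlap, to 27.1, 35.4 and 34.0 FPKM in Wannanhua and 23.7, 22.0 and 23.3 in Yorkshire. The sums of the other families overlapped. Among all single genes tested, 29.9% did not overlap. The sums cover only members with a row, so SOD2, GPX1, GPX3 and TXN, among others, are left out. All 36 members summed to 1789 ± 105 FPKM in Wannanhua and 1630 ± 191 in Yorkshire, with overlap.

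The settings of the fit bear on the 4 members in the plot of adjusted p by setting. PRDX4 passed in 10 of 15 alternatives and PRDX1 and SOD1 in 1 each, while TXNRD2, which has no value under the filter at 5 FPKM, passed in 1 of 14.

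**Figure D4:**
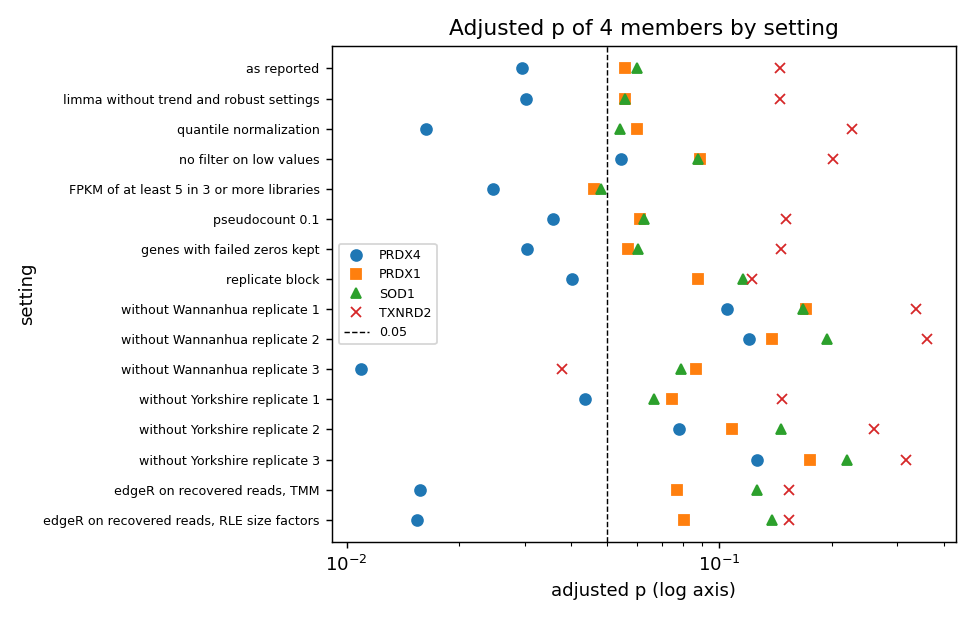
Adjusted p on a log axis of PRDX4, PRDX1, SOD1 and TXNRD2 as reported and under 15 alternatives (14 for TXNRD2), 1 setting per row, with the dashed line at 0.05. PRDX4 lies left of the line except without the filter and without Wannanhua 1, Wannanhua 2, Yorkshire 2 or Yorkshire 3, while TXNRD2 crosses it only without Wannanhua 3.

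Other genes of redox metabolism were read from a list of 94, of which 67 had a row and 59 were tested: regulators, NADPH supply, cysteine and selenium handling, and further detoxifying enzymes. Of the 59, 3 were higher and 0 lower in Wannanhua past limma's threshold, beside 3.05% of all genes called. In edgeR 2 of the 62 it tested were called, both higher, beside 2.92% of all genes. At an unadjusted p under 0.05 stood 16 higher and 5 lower, or 35.6%, beside 22.1% of all genes. The libraries of the breeds did not overlap in 19 of the 59, 13 higher and 6 lower, or 32.2%, near the 29.9% of all genes. Their median difference was 0.16, beside 0.12 for all genes.

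The 3 called genes were ME3, NFE2L1 and BLVRB. ME3, the mitochondrial malic enzyme that makes NADPH, stood at 29.8, 38.6 and 16.7 FPKM in Wannanhua and 7.38, 4.70 and 7.96 in Yorkshire (log2 difference 1.89 ± 0.33 SE, limma adjusted p = 0.0389; edgeR 0.0294). All Wannanhua libraries were above all Yorkshire libraries, Wannanhua 3 least so. NFE2L1, a relative of NFE2L2 known for control of proteasome genes, stood at 188, 316 and 270 FPKM in Wannanhua and 78.2, 115 and 93.7 in Yorkshire (1.41 ± 0.25 SE, limma adjusted p = 0.0397; edgeR 0.0255). BLVRB, biliverdin reductase B, which is abundant in red blood cells, stood at 9.30, 12.2 and 6.98 FPKM in Wannanhua and 3.65, 3.26 and 3.51 in Yorkshire (1.20 ± 0.22 SE, limma adjusted p = 0.0403; edgeR 0.0571). HBB stood at 141, 116 and 42.9 FPKM in Wannanhua and 93.1, 15.5 and 18.0 in Yorkshire, and its part in the BLVRB values was not tested. All 3 calls were lost on leaving out any 1 library other than Wannanhua 3 (limma adjusted p from 0.0645 to 0.139 for ME3, 0.0668 to 0.141 for NFE2L1 and 0.0625 to 0.14 for BLVRB). Without Wannanhua 3, ME3 and BLVRB passed and NFE2L1 did not (0.0546). All 3 were also lost without the filter on low values (0.0671 for ME3, 0.0672 for NFE2L1 and 0.068 for BLVRB). ME3 and BLVRB were lost with the replicate block (0.0615 and 0.057), and BLVRB after quantile normalization (0.0566). Over all alternatives the log2 difference ran from 1.63 to 2.21 for ME3, 1.25 to 1.62 for NFE2L1 and 1.02 to 1.39 for BLVRB.

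NFE2L2 itself stood at 39.1, 39.4 and 30.5 FPKM in Wannanhua and 20.7, 28.5 and 20.3 in Yorkshire. The groups did not overlap, by a small margin, and the difference of 0.63 ± 0.20 (SE) did not pass (limma adjusted p = 0.131). KEAP1 overlapped, at 12.4, 15.0 and 19.0 FPKM and at 13.3, 12.9 and 11.1 (0.439). A transcript level says nothing of how much NFE2L2 protein KEAP1 released.

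NADPH supply held 11 tested genes, of which ME3 passed and 4, ME3 among them, stood higher at an unadjusted p under 0.05, beside 3.05% of all genes called and 14.6% higher at an unadjusted p under 0.05. NNT, the mitochondrial transhydrogenase that makes NADPH from NADH, stood at 216, 195 and 101 FPKM in Wannanhua and 89.0, 48.8 and 64.7 in Yorkshire, without overlap. It missed the threshold (log2 difference 1.30 ± 0.34 SE, limma adjusted p = 0.0883) and passed without Wannanhua 3 (0.0296). Slow-fibre markers were also high in Wannanhua 1 and 2 and lower in Wannanhua 3, and their part in the ME3 and NNT values was not tested.

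Further genes whose breeds did not overlap missed the threshold. Higher in Wannanhua were HMOX2, the constitutive haem oxygenase (44.8 ± 6.01 and 26.1 ± 1.77 FPKM, SD, n = 3; limma adjusted p = 0.0621), and EEFSEC, the elongation factor for selenocysteine (4.08 ± 0.162 and 2.24 ± 0.294 FPKM; 0.0785). So were AKR1A1, an aldehyde reductase (15.4 and 9.23 FPKM; 0.0872), and LAP3, a leucine aminopeptidase (58.3 and 32.6 FPKM; 0.089). CTH, which makes cysteine from cystathionine, stood at 5.51 and 2.17 FPKM (0.113), and OPLAH, the 5-oxoprolinase of glutathione turnover, at 14.1 and 5.99 (0.114). Lower in Wannanhua were ESD, the S-formylglutathione hydrolase (61.0 ± 12.2 and 110 ± 16.0 FPKM; 0.0783), and ALDH2, the mitochondrial aldehyde dehydrogenase (145 ± 33.7 and 258 ± 24.7 FPKM; 0.0811).

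**Figure D5:**
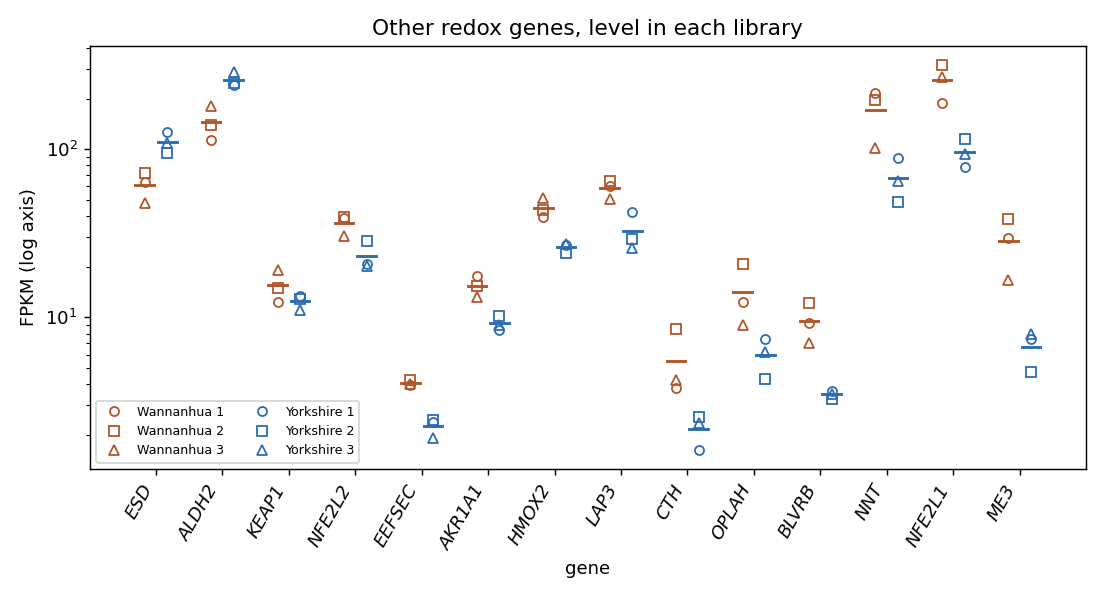
FPKM on a log axis of 14 other redox genes, ordered by the breed difference, with Wannanhua in brown, Yorkshire in blue, a symbol per replicate number and a line at each breed's mean. All except KEAP1 separate the breeds without overlap, ESD and ALDH2 with Wannanhua lower and the other 11 with Wannanhua higher. Apart from NFE2L2 and KEAP1 they were chosen for a small unadjusted p, which favours such separation. Among the 59 tested genes of the list 32.2% did not overlap, beside 29.9% of all genes.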

How the data were processed

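The authors deposited 1 table with 2 columns per library, FPKM and "count", per the file headers. FPKM is scaled by transcript length and library size. The deposited count columns hold fractions and were handled as a signal proportional to reads: in every library 99.71% to 99.82% of nonzero entries were integer multiples of the same unit, to a tolerance of 0.01 read or a relative 1e-05, and dividing by it gave reads. The unit was taken near the commonest entry close to 1, because a few entries (1 to 3 per library) were smaller than 1 read. A search from the smallest entries finds no such unit in Wannanhua 1, 2 and 3 and Yorkshire 2, so reads there depend on this choice. The submitters' processing notes list CASAVA 1.7, TopHat2 2.0.6 and Sscrofa 10.2. The counter, the annotation and the treatment of multi-mapping reads are not stated in what was used here, so genes with close copies, such as the glutathione transferases, are uncertain. Per the labels' protocols the kit does not mark strand, and antisense reads could not be told apart.

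Symbols were matched for 10384 of 17627 identifiers (58.9%). A further 23 symbols of the rule, among them GPX1, GPX3, SOD2, TXN, TXNIP, GCLM, GLRX and HMOX1, matched no row and were not analysed here. limma 3.58.1 (R 4.3.3) was run on log2(FPKM + 1), a scale that understates the change of low genes, with breed as the only term, trend and robust settings, genes at 1 FPKM or more in 3 or more libraries, and Benjamini-Hochberg adjustment over 11791 genes at 0.05. A zero can be a failed estimate, so 7 genes, ACTA1 among them, were dropped. They were listed at 0 in 1 or more libraries while having a scaled count of 10000 or more elsewhere. edgeR 4.0.16 on the reads was an alternative. Both fits were tested on simulated data. Each pair of libraries within a breed differed beyond sampling noise (chi-square per degree of freedom at least 79.8).

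The members, lists and tests were chosen with earlier results of these data known. Values by library are given for members past the threshold, those at an unadjusted p under 0.05 and a fixed set of 25 genes, of which 17 had a row. From the other redox genes were named those called, the 12 with the smallest unadjusted p under 0.05, NFE2L2 and KEAP1. Genes named outside this rule are said to be, and MGST3, GSTO1, GPX2 and TXNL1 were given by library after their values were seen.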

Additional observations from a re-analysis of the deposited data

How the results depend on the processing

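Precision is limited by 3 libraries per breed and by low read numbers for GPX4, GSTA4 and NQO2, among others. BLVRB, which limma called, rests on 75, 91 and 50 reads in Wannanhua and 25, 25 and 29 in Yorkshire. Of all genes, 360 of 11791 were called as reported, 69 of 17620 without a filter and 381 of 7028 with the filter at 5 FPKM. The number was 205 with the replicate number as a block and 27 to 524 when 1 library was left out. Higher genes numbered 208 of 360 as reported and 138 of 338 after quantile normalization, which moved the median of all genes from 0.12 to 0.00. Of the members, 1 of 34 was called as reported, 0 of 36 without a filter and 3 of 25 with the filter at 5 FPKM (PRDX1, PRDX4 and SOD1). The number was 0 to 2 with 1 library left out. With the replicate block it was 1, PRDX4. Of the other redox genes, 3 were called as reported, 0 without a filter, 1 with the replicate block and 0 to 8 with 1 library left out, the 8 without Wannanhua 3. Same-numbered libraries correlated at 0.10, -0.01 and 0.11 in their deviations from the breed means, so the numbers were not taken to pair the samples.

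Among the genes described library by library under the naming rule, directions turned in 4 with differences near 0. GSS turned to -0.09 after quantile normalization and to -0.08 and -0.09 in edgeR with TMM and RLE scaling, and ran from -0.03 to 0.16 with 1 library left out. PRDX6 ran from -0.15 to 0.02 with 1 library left out. SOD3 turned to -0.14 after quantile normalization and to -0.05 and -0.06 in edgeR, and ran from -0.10 to 0.28 with 1 library left out. TXN2 turned to -0.03 and -0.05 in edgeR and ran from -0.00 to 0.31 with 1 library left out. Other members whose sign changed over the alternatives were GPX2 (-0.89 to 0.34), GLRX5 (-0.29 to 0.41), TXNDC9 (-0.29 to 0.12), TXNDC11 (-0.07 to 0.16), TXNDC12 (-0.06 to 0.21) and TXNL1 (-0.09 to 0.32). The cause was not tested. Over 34 named genes and 15 alternatives, 455 of the 506 comparisons that could be made kept direction and side of the threshold, 29 lost it, 6 gained it and 16 reversed. Only PRDX4, ME3, NFE2L1 and BLVRB were called as reported, so all 29 losses fell on them. These genes passed in 10, 8, 8 and 5 of 15 alternatives. For the other named genes, keeping the side of the threshold meant staying uncalled, so the pooled count is no measure of how firm the calls are.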
